A study of Mus musculus with 8 samples.

Results

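The genes described here are 45 mouse genes with textbook roles in mitosis, from the kinases that start it to the proteins that cleave the cell. They were chosen by symbol and not by level, and where an array carried several probes for a gene, the probe with the brightest mean signal stood for it. All 45 were on the array and well above background on all 8 arrays, and they are 45 of the 20839 genes tested.

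The cells were mouse embryonic fibroblasts (MEFs) that lack Csk, the kinase that holds Src family kinases inactive. At every time they carried a transfected vector, pBKT2-c-Src, from which doxycycline at 1 µg/ml switches on c-Src, a tyrosine kinase. RNA was taken before induction (0 h) and after 6, 24 and 72 h, and each time has 2 of the 8 arrays. The 0 h cells share the Csk-/- genotype and the vector, and no group with Csk, with empty vector or with doxycycline alone is used here, so time in culture, doxycycline and c-Src cannot be told apart. Whether both arrays of a time stem from separate cultures is not in the labels, and the p-values therefore measure the spread between arrays only, which may be technical.

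During mitosis, Cdk1 with cyclin A or B phosphorylates the proteins that condense chromosomes and build the spindle. The spindle checkpoint holds the anaphase-promoting complex (APC/C) back until every kinetochore is attached, after which securin and cyclin B are destroyed and the cell divides. Transcripts of these genes are low in G1 and peak in G2 and mitosis in cycling cells, through repression by the DREAM complex and activation by the B-Myb-MuvB complex and FoxM1, which act at promoter elements named CHR and at CCAAT boxes bound by NF-Y. In RNA from a whole culture, a smaller share of dividing cells and less RNA per dividing cell cannot be told apart.

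The 300-base promoters of the mitosis genes were read from RefSeq (GRCm38.p6, 250 bases before to 50 after the annotated start), which held 38 promoters for 36 of the 45 genes. No entry was matched for Dlgap5, Tpx2, Ccna2, Incenp, Kif20a, Aurkb, Foxm1, Smc4 and Cdc25c. Ect2 and Prc1 each entered with overlapping promoters, so the same letters of these genes were counted repeatedly in the shares and matches below. The CHR letters TTTGAA or TTCGAA, on either strand, stood in 78.9% of the 38 promoters. They stood in 44.9% of 98 promoters of other mitosis genes, 16.1% of 31 promoters of S phase genes and 19.2% of all 32851 promoters of that length. CCAAT on either strand stood in 78.9%, against 59.2%, 54.8% and 37.4% of these sets, and both stood in 71.1%, against 29.6%, 12.9% and 7.5%. The E2F letters TTCCCGC, on either strand, stood in 0 of the 38, against 20.4%, 38.7% and 4.6%. Of the 41 CHR matches, 68.3% began within 50 bases of the start, near the 66.0% of matches in other mitosis genes, against 33.3% in S phase genes and 25.2% in all promoters. A CHR match was present for 14 of 20 genes that rose at 72 h against 0 h, 12 of 14 that did not pass the test and both that fell. These matches describe letters and not bound sites.

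Promoters of 5 mitosis genes are shown because the genes took different courses, and they were picked after their values were seen: Racgap1 (chr15:99651607-99651906, minus strand) and Cdc25b (chr2:131186698-131186997, plus strand) rose at both late times, Plk1 (chr7:122159185-122159484, plus strand) was highest at 24 h, Spc25 (chr2:69206164-69206463, minus strand) fell, and Mki67 (chr7:135716330-135716629, minus strand) did not pass the test in any comparison. Capitals mark CHR and CCAAT matches, with CCAAT also written as ATTGG where it lies on the other strand. Each of the 5 holds both, whichever way its transcript went.
Racgap1: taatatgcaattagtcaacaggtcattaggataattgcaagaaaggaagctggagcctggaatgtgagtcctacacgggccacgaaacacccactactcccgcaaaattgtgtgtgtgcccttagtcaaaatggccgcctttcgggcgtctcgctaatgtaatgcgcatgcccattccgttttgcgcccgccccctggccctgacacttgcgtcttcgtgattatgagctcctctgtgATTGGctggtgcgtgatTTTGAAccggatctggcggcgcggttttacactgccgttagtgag
Cdc25b: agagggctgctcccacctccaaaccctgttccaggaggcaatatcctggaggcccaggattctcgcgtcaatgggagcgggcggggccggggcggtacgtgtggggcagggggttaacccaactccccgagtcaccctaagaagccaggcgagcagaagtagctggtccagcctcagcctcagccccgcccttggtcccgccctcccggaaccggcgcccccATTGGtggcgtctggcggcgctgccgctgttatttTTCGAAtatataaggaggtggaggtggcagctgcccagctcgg
Plk1: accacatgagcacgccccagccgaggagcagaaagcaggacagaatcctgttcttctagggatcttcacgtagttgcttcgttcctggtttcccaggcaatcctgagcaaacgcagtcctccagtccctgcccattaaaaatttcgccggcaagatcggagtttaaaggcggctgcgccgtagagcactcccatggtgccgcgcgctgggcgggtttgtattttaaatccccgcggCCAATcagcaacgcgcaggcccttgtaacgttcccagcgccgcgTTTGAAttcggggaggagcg
Spc25: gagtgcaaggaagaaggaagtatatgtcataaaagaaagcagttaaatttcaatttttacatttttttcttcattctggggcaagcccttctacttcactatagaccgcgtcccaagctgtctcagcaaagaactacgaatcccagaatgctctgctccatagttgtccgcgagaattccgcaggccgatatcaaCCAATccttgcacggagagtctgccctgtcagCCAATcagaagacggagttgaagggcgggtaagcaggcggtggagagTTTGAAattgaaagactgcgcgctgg
Mki67: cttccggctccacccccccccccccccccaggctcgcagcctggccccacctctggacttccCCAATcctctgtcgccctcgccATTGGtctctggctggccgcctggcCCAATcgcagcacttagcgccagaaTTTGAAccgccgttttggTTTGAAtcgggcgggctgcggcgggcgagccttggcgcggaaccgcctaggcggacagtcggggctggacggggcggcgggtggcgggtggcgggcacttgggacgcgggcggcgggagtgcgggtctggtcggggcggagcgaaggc

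The labels were checked first. Src rose over its 0 h level by 4.75 at 6 h, 4.57 at 24 h and 4.29 at 72 h on the log2 scale, and no array had Csk signal well above background. Of 10 fibroblast markers, 8 were well above background on all arrays and Thy1 and Prrx1 were not. Signals are log2 of the processed signal minus the 75th percentile of the array, which lay between 370 and 393, and 49.9% to 54.7% of spots were well above background. The 8 arrays lay on 1 slide, with time following the slide row and replicate number following the slide column. Differences between times and between slide rows therefore cannot be told apart. Genes were called at a Benjamini-Hochberg adjusted p under 0.05 in limma over all 20839 genes. In the 3 comparisons with 0 h, 58.8%, 51.5% and 52.7% of all calls at 6, 24 and 72 h were rises. These shares were 77%, 74.7% and 75.1% with arrays scaled to their median, and 46.9%, 48.4% and 51.7% with quantile normalization.

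Most mitosis genes were at their lowest at 6 h and higher at 24 and 72 h, by less than 2-fold. The mean was lowest at 6 h for 33 of the 45 genes, against 18% of all genes. Under 17 alternatives for this count, chosen after seeing the data, between 28 and 40 genes were lowest at 6 h, against 16.4% to 22.9% of all genes. The mean was highest at 24 h for 21 genes and at 72 h for 20, against 15.5% and 33.8% of all genes. The largest difference of any mitosis gene was 1.79-fold, for Racgap1 at 72 h against 0 h. By their calls against 0 h, 19 genes rose at both 24 and 72 h, 6 rose only by the call at 72 h, 3 only by the call at 24 h, 1 fell at both, and 11 passed the test at no time. The other 5 are those that fell at 6 h, of which Ncapd2 also fell at 72 h and Cdc25c rose at 24 h. Of all genes, 17.6%, 41.5% and 52% were called at 6, 24 and 72 h against 0 h, but the share with each pattern was not counted.

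**Figure D1:**
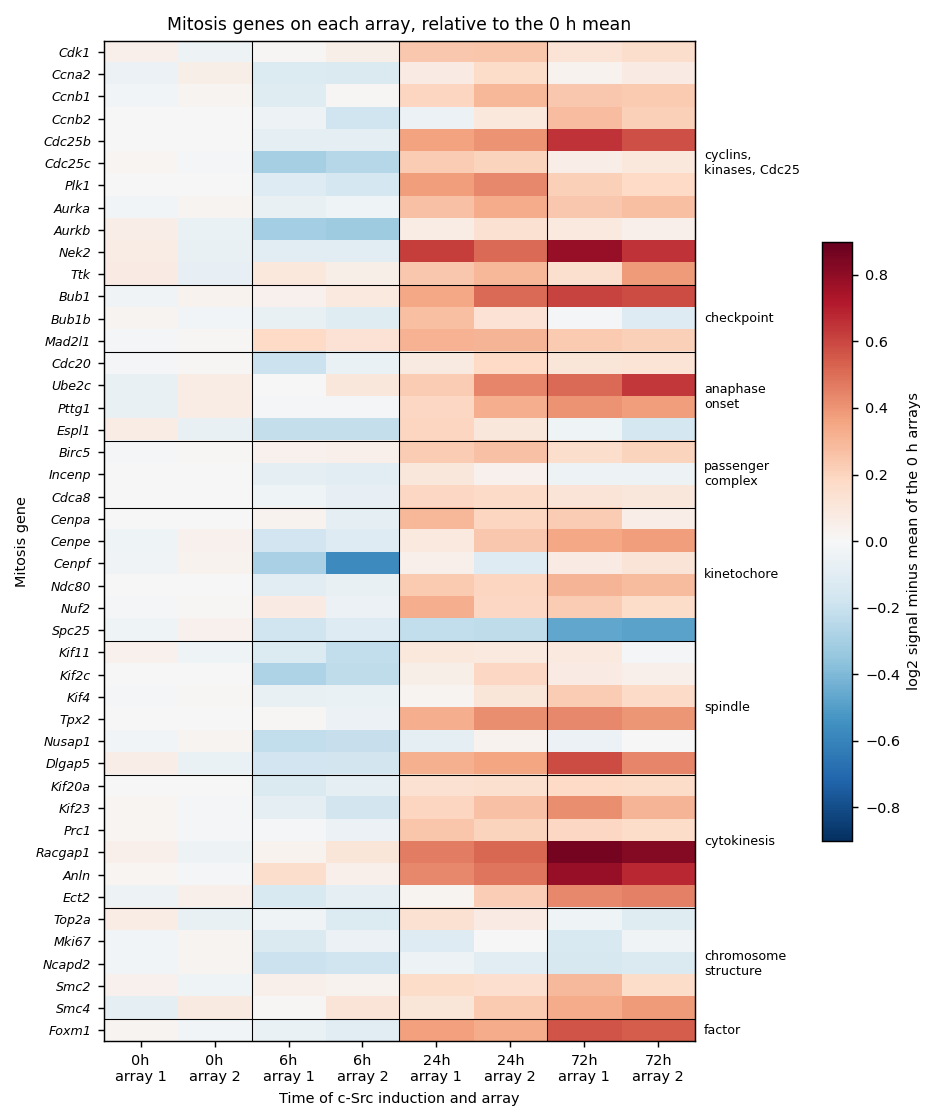
Each cell of the heat map is the log2 scaled signal of 1 mitosis gene on 1 array minus the mean of its 0 h arrays, with genes in rows grouped by role and the 8 arrays in columns by time. Most rows are pale or blue at 6 h and red at 24 and 72 h, with Racgap1, Anln and Nek2 the reddest and Spc25 blue at 72 h.

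At 6 h against 0 h, 5 of the 45 genes fell and 0 rose, where 7.25% of all genes fell and 10.3% rose. Among the 18858 genes that, like all 45, were well above background on every array, 9.03% fell and 12.6% rose. The share of mitosis genes that fell lay near these backgrounds. At an unadjusted p under 0.05, limma gave 12 falls and 1 rise, and the share of all genes at that threshold was not counted. The genes that fell were Cenpf, Aurkb, Cdc25c, Kif2c and Ncapd2, by 0.43, 0.31, 0.28, 0.25 and 0.19 on the log2 scale. The median difference was -0.081, against 0.0048 over all genes, and 34 of 45 genes were lower. The 2 arrays of 6 h did not overlap those of 0 h for 33 genes, a share close to the 62.7% of all genes. None of the 5 falls passed the test under all 18 alternatives. The count was 0 with median scaling and 12 with quantile normalization, where 2.52% and 9.8% of all genes fell. Without any single array of 0, 6 or 72 h, fewer of the 45 and of all genes passed. The median of the 45 was -0.080 and -0.079 without array 1 or 2 of 0 h, against 0.0015 and 0.012 over all genes. It was -0.085 and -0.079 without array 1 or 2 of 6 h, against 0.010 and 0.0026.

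At 24 h against 0 h, 23 genes rose and 1 fell, where 21.4% of all genes rose and 20.1% fell, and 23.5% and 21.5% of genes well above background on every array. The largest rises were those of Nek2, Racgap1 and Anln, at 0.57, 0.49 and 0.46, and Spc25 fell by 0.22. The median difference was 0.21, against -0.016 over all genes. For 40 genes both 24 h arrays lay above or both below the 0 h arrays, which held for 69.9% of all genes. Without a filter on dim probes 11 mitosis genes rose, where 8.15% of all genes rose. With median scaling 31 mitosis genes rose, where 29% of all genes rose and the median of all genes was 0.13. Without array 2 of 0 h, fewer mitosis genes and fewer of all genes rose. The median of the mitosis genes was then 0.20, against -0.0057 over all genes.

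At 72 h against 0 h, 25 genes rose and 2 fell, where 27.4% of all genes rose and 24.6% fell, and 30.1% and 25.8% of genes well above background on every array. Racgap1 rose by 0.84, Anln by 0.73, Nek2 by 0.72, Cdc25b by 0.62 and Bub1 by 0.60, and these were the 5 genes past 1.5-fold. Spc25 fell by 0.47 and Ncapd2 by 0.14. The median difference was 0.20, against 0.0015 over all genes. Although few genes differed by much, 38 of 45 had arrays that did not overlap, close to the 78.1% of all genes. The fall of Ncapd2 was one of the calls that depended on the scaling: with median scaling, under which the median of all genes was 0.18, its difference was 0.044.

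The comparisons with 6 h use the same late arrays as those with 0 h, so the values stand side by side and are not independent. At 24 h against 6 h, 31 genes rose and 0 fell. Of all genes, 12.6% rose and 13.6% fell (14.6% and 15.2% of genes well above background on every array). At an unadjusted p under 0.05 in limma, 39 mitosis genes rose and 0 fell, and the share of all genes at that threshold was not counted. The largest rises were 0.66 for Nek2, 0.54 for Plk1 and 0.51 for Dlgap5, and the median was 0.27, against -0.018 over all genes. The arrays did not overlap for 42 genes, against 65.1% of all genes. Without a filter on dim probes 10 mitosis genes rose, where 2.17% of all genes rose. Without array 1 or 2 of 6 h or array 2 of 24 h, fewer mitosis genes and fewer of all genes rose. The median of the mitosis genes was 0.28 without array 1 of 6 h, against -0.017 over all genes. It was 0.27 without array 2 of 6 h, against -0.014, and 0.25 without array 2 of 24 h, against -0.039.

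At 72 h against 6 h, 33 genes rose and 1 fell, where 22.9% of all genes rose and 22.4% fell, and 25.3% and 23.8% of genes well above background on every array. Nek2, Racgap1 and Cdc25b rose most, by 0.81, 0.77 and 0.70, and Spc25 fell by 0.33. The median was 0.29, against 0.0027 over all genes, 6 genes passed 1.5-fold, and 42 had arrays that did not overlap, against 76.4% of all genes. Without array 1 of 72 h, fewer mitosis genes and fewer of all genes rose. The median of the mitosis genes was then 0.30, against 0.0095 over all genes.

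At 72 h against 24 h, 5 genes rose and 3 fell, where 10.8% of all genes rose and 10.9% fell, and 13.2% and 12.8% of genes well above background on every array, so the shares of mitosis genes lay near the background. Racgap1, Ect2, Anln, Cdc25b and Foxm1 rose by 0.35, 0.32, 0.27, 0.23 and 0.20. Bub1b, Spc25 and Plk1 fell by 0.26, 0.25 and 0.21. The median was -0.0064, against 0.015 over all genes, and 33 genes had arrays that did not overlap, against 64.9% of all genes. None of the 8 calls passed under all alternatives: the rises numbered 2 and the falls 1 without either array of 0 h, the rises 3 and the falls 1 without either array of 6 h, and both 0 without array 1 of 24 h or either array of 72 h. Without array 2 of 24 h, 1 gene fell.

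**Figure D2:**
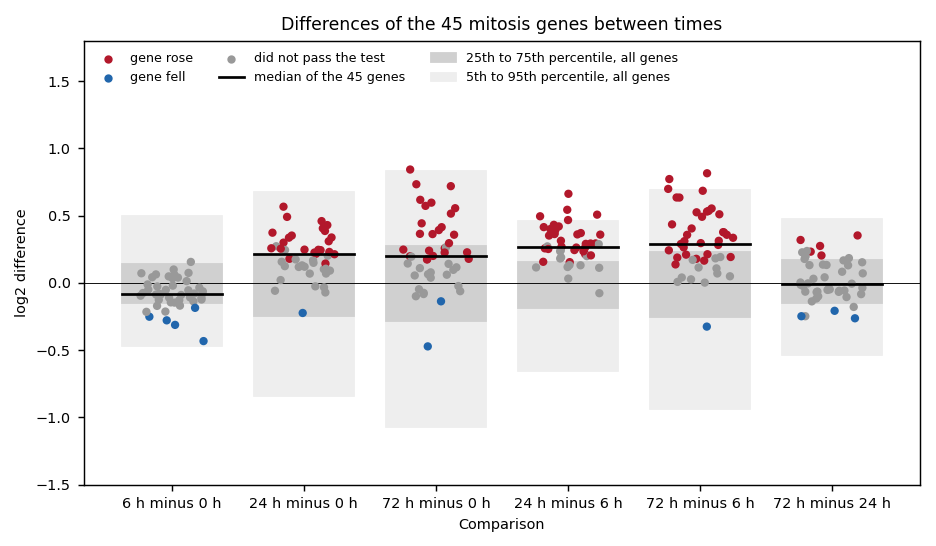
Each point is the log2 difference of 1 of the 45 mitosis genes in 1 of 6 comparisons between times, coloured by its call, with a bar at the median of the 45 and grey bands for the percentiles of all 20839 genes. The medians are 0.21 at 24 h and 0.20 at 72 h against 0 h, and 0.27 and 0.29 against 6 h, where the 75th percentiles of all genes are 0.21, 0.28, 0.15 and 0.23.

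Among the cyclins, kinases and Cdc25 phosphatases that drive entry, 7 of 11 genes rose at 24 h and 6 of 11 at 72 h against 0 h, and 9 of 11 rose at either time against 6 h. Of all genes, 21.4% and 27.4% rose at 24 and 72 h against 0 h, and 12.6% and 22.9% against 6 h. Cdk1, the kinase at the centre of entry, gave log2 signals of 3.92 and 3.84 at 0 h, 3.89 and 3.93 at 6 h, 4.12 and 4.13 at 24 h, and 4.0 and 4.04 at 72 h. Both 24 h arrays lay above all other arrays, and Cdk1 was higher at 24 h than at 0 h by 0.25 (SE 0.049, adjusted p = 0.0104) but at 72 h by 0.14 (SE 0.049, adjusted p = 0.0556), which missed the threshold. Its partner Ccnb1 (cyclin B1) rose by 0.24 (adjusted p = 0.0256) at 24 h and 0.24 (adjusted p = 0.022) at 72 h, Ccnb2 (cyclin B2) by 0.25 (adjusted p = 0.0336) at 72 h alone among the calls against 0 h, and Ccna2 (cyclin A2) passed at neither time, with 0.12 and 0.054.

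The Cdc25 phosphatases remove the inhibitory phosphates from Cdk1, and the 2 genes took different courses. Cdc25b gave 2.92 and 2.91 at 0 h, 2.83 and 2.83 at 6 h, 3.28 and 3.32 at 24 h, and 3.56 and 3.49 at 72 h. Every array at 24 h lay above those at 0 and 6 h and every array at 72 h above those at 24 h, and the difference was 0.39 (SE 0.045, adjusted p = 0.00175) at 24 h and 0.62 (SE 0.045, adjusted p = 0.000229) at 72 h against 0 h. Cdc25c gave 0.40 and 0.36 at 0 h, 0.079 and 0.12 at 6 h, 0.61 and 0.58 at 24 h, and 0.44 and 0.48 at 72 h. It was low on both 6 h arrays and highest on the 24 h arrays, by -0.28 (SE 0.043, adjusted p = 0.0124) at 6 h and 0.22 (SE 0.043, adjusted p = 0.0111) at 24 h against 0 h, and its 72 h difference of 0.078 missed the threshold.

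Plk1, the polo-like kinase that acts on centrosomes, kinetochores and the cleavage furrow, gave 4.59 and 4.58 at 0 h, 4.47 and 4.42 at 6 h, 4.96 and 5.01 at 24 h, and 4.80 and 4.76 at 72 h. The 24 h arrays were the highest and the 6 h arrays the lowest, with 0.41 (SE 0.045, adjusted p = 0.00138) at 24 h against 0 h, 0.20 (SE 0.045, adjusted p = 0.0135) at 72 h against 0 h and -0.21 (SE 0.045, adjusted p = 0.0274) at 72 h against 24 h. Nek2, a kinase of centrosome separation, gave 1.17 and 1.03 at 0 h, 1.01 and 1.00 at 6 h, 1.73 and 1.61 at 24 h, and 1.89 and 1.75 at 72 h. Its arrays split into the low 0 and 6 h arrays and the high 24 and 72 h arrays, with 0.57 (SE 0.077, adjusted p = 0.00284) at 24 h and 0.72 (SE 0.077, adjusted p = 0.000813) at 72 h against 0 h, a 1.65-fold rise at 72 h.

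Aurkb, the kinase of the chromosomal passenger complex, gave -1.22 and -1.35 at 0 h, -1.59 and -1.61 at 6 h, -1.22 and -1.15 at 24 h, and -1.20 and -1.24 at 72 h. Both 6 h arrays were below all others, by -0.31 (SE 0.058, adjusted p = 0.0204) against 0 h, while the 72 h and 0 h arrays overlapped. At 24 h Aurkb was above 6 h by 0.41 (SE 0.058, adjusted p = 0.00644) and above 0 h by 0.10, which missed the threshold. Aurka, its relative at the spindle poles, rose by 0.30 (adjusted p = 0.00468) at 24 h and 0.26 (adjusted p = 0.00614) at 72 h against 0 h. Ttk, the Mps1 kinase of the checkpoint, was higher by 0.27 (adjusted p = 0.0679) and 0.27 (adjusted p = 0.0611) and passed in no comparison.

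Of the 3 genes of the spindle checkpoint, 2 rose at 24 h and the same number at 72 h against 0 h. Of all genes, 21.4% and 27.4% rose at these times. Bub1, a kinase that brings checkpoint proteins to the kinetochore, gave 2.02 and 2.08 at 0 h, 2.09 and 2.14 at 6 h, 2.40 and 2.56 at 24 h, and 2.66 and 2.64 at 72 h. Every 24 h and 72 h array lay above every earlier one, with 0.43 (SE 0.065, adjusted p = 0.00414) at 24 h and 0.60 (SE 0.065, adjusted p = 0.000877) at 72 h against 0 h. Bub1b (BubR1), a part of the complex that inhibits Cdc20, gave 2.52 and 2.48 at 0 h, 2.44 and 2.39 at 6 h, 2.77 and 2.63 at 24 h, and 2.49 and 2.39 at 72 h. It was highest on the 24 h arrays and its 72 h arrays overlapped those of 0 h, with 0.29 (SE 0.067, adjusted p = 0.0283) at 24 h against 6 h and -0.26 (SE 0.067, adjusted p = 0.0423) at 72 h against 24 h. Mad2l1 (Mad2), which also binds Cdc20, rose by 0.31 (adjusted p = 0.00283) and 0.22 (adjusted p = 0.00665) at 24 and 72 h against 0 h by its brightest probe.

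Of the 4 genes of anaphase onset, Ube2c and Pttg1 rose at both late times against 0 h, where 21.4% of all genes rose at 24 h and 27.4% at 72 h. Cdc20, the activator of the APC/C, gave 5.30 and 5.32 at 0 h, 5.12 and 5.25 at 6 h, 5.39 and 5.49 at 24 h, and 5.42 and 5.43 at 72 h. Its 24 and 72 h arrays lay above the 0 h arrays by less than the test required, at 0.13 (SE 0.062, adjusted p = 0.153) and 0.12 (SE 0.062, adjusted p = 0.175), and above the 6 h arrays by 0.26 (adjusted p = 0.0333) and 0.24 (adjusted p = 0.0245). Ube2c, the ubiquitin-conjugating enzyme of the APC/C, rose by 0.34 (adjusted p = 0.0386) at 24 h and 0.57 (adjusted p = 0.00464) at 72 h. Securin (Pttg1) rose by 0.26 (adjusted p = 0.0297) and 0.39 (adjusted p = 0.0052), and separase (Espl1), the protease it inhibits, passed at neither time, with 0.15 and -0.10.

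The passenger complex subunits other than Aurkb differed by little. Birc5 (survivin) gave 6.41 and 6.44 at 0 h, 6.46 and 6.47 at 6 h, 6.66 and 6.69 at 24 h, and 6.58 and 6.63 at 72 h. Its 24 h arrays were the highest and its 6 h arrays lay just above those of 0 h, with 0.25 (SE 0.042, adjusted p = 0.00617) at 24 h and 0.18 (SE 0.042, adjusted p = 0.0154) at 72 h against 0 h. Cdca8 (borealin) rose by 0.18 (adjusted p = 0.0167) at 24 h and was higher by 0.11 (adjusted p = 0.0677) at 72 h, which missed the threshold. Incenp, the scaffold of the complex, passed only at 24 h against 6 h, by 0.16 (adjusted p = 0.0453).

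The centromere and kinetochore genes did not move together. Cenpa, the centromeric histone H3 variant, gave 4.01 and 4.02 at 0 h, 4.05 and 3.93 at 6 h, 4.31 and 4.2 at 24 h, and 4.24 and 4.08 at 72 h. Its late arrays lay above those of 0 h, but the differences of 0.24 (SE 0.079, adjusted p = 0.054) and 0.14 (SE 0.079, adjusted p = 0.18) missed the threshold, as did all its other comparisons. Cenpf, a large kinetochore protein, gave -2.10 and -2.04 at 0 h, -2.36 and -2.65 at 6 h, -2.02 and -2.19 at 24 h, and -2.0 and -1.95 at 72 h. Both 6 h arrays were low, and they differed by more between themselves than the arrays of any other single time did. The difference of 6 h from 0 h was -0.43 (SE 0.11, adjusted p = 0.0443). Cenpe, the kinesin that moves chromosomes to the metaphase plate, rose by 0.36 (adjusted p = 0.0062) at 72 h against 0 h.

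Ndc80, Nuf2 and Spc25 encode subunits of the Ndc80 complex, the main microtubule receptor of the kinetochore, and Spc25 went the opposite way to Ndc80. Spc25 (chr2:69031953-69032012 on mm9, minus strand) gave 5.61 and 5.68 at 0 h, 5.46 and 5.53 at 6 h, 5.42 and 5.42 at 24 h, and 5.18 and 5.17 at 72 h. The arrays of 24 h lay below all earlier ones and those of 72 h below all of 24 h, with -0.22 (SE 0.049, adjusted p = 0.0149) at 24 h and -0.47 (SE 0.049, adjusted p = 0.000724) at 72 h against 0 h. The fall at 72 h passed the test under all 18 alternatives, from -0.29 with median scaling to -0.56 with quantile normalization. The difference at 24 h was -0.076 with median scaling, which missed the threshold, as it did without a filter on dim probes, with only the 2 times fitted, and without array 2 of 0 h or array 2 of 24 h. Ndc80 rose by 0.21 (adjusted p = 0.00984) at 24 h and 0.29 (adjusted p = 0.00221) at 72 h, and Nuf2 by 0.25 (adjusted p = 0.0326) at 24 h, with 0.19 (adjusted p = 0.062) at 72 h.

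Of the 6 kinesins and spindle proteins, 2 rose at 24 h and 3 at 72 h against 0 h, and all 6 rose at 72 h against 6 h. Of all genes, 21.4%, 27.4% and 22.9% rose in these comparisons, so the count at 24 h lay near the background. Kif11 (Eg5), the kinesin that pushes spindle poles apart, gave 0.98 and 0.90 at 0 h, 0.82 and 0.72 at 6 h, 1.04 and 1.03 at 24 h, and 1.03 and 0.93 at 72 h. Its 6 h arrays were below all others, and the 72 h arrays overlapped those of 0 h, with 0.26 (SE 0.061, adjusted p = 0.0296) at 24 h against 6 h. Dlgap5 (HURP), which stabilises fibres to the kinetochore, gave 0.83 and 0.71 at 0 h, 0.59 and 0.60 at 6 h, 1.09 and 1.12 at 24 h, and 1.36 and 1.21 at 72 h. Its late arrays were above all earlier ones, with 0.34 (SE 0.068, adjusted p = 0.0114) at 24 h, 0.51 (SE 0.068, adjusted p = 0.0018) at 72 h against 0 h and 0.51 (SE 0.068, adjusted p = 0.00562) at 24 h against 6 h. Kif4, a chromosome-bound kinesin, rose by 0.20 (adjusted p = 0.0181) at 72 h against 0 h. Kif2c (MCAK), which shortens microtubules, fell by 0.25 at 6 h against 0 h and rose by 0.37 (adjusted p = 0.00852) at 24 h against 6 h. Nusap1, a microtubule bundling protein, passed only at 72 h against 6 h, by 0.19 (adjusted p = 0.0389). Tpx2, which activates Aurka and nucleates spindle microtubules, rose by 0.41 (adjusted p = 0.00151) at 72 h against 0 h on its brightest probe and not on its other one.

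Of the central spindle and cytokinesis genes, 5 of 6 rose at 24 h and 6 of 6 at 72 h against 0 h, by 0.17 to 0.84 at 72 h with a median of 0.40. Of all genes, 21.4% and 27.4% rose at these times. Racgap1, the GTPase-activating subunit of centralspindlin, gave 4.33 and 4.23 at 0 h, 4.31 and 4.39 at 6 h, 4.74 and 4.80 at 24 h, and 5.14 and 5.11 at 72 h. Its 0 and 6 h arrays overlapped, all 24 h arrays lay above them and all 72 h arrays above those, with 0.49 (SE 0.056, adjusted p = 0.00153) at 24 h, 0.84 (SE 0.056, adjusted p = 0.000164) at 72 h against 0 h and 0.35 (SE 0.056, adjusted p = 0.0122) at 72 h against 24 h. Kif23, the kinesin of centralspindlin, rose by 0.36 (adjusted p = 0.00441) at 72 h, and Prc1, which bundles the midzone microtubules, by 0.18 (adjusted p = 0.0179). Kif20a, a midzone kinesin that carries the passenger complex, gave 4.67 and 4.68 at 0 h, 4.54 and 4.59 at 6 h, 4.81 and 4.82 at 24 h, and 4.85 and 4.84 at 72 h. All its late arrays lay above the 0 h arrays and all 6 h arrays below them, with 0.14 (SE 0.041, adjusted p = 0.0362) at 24 h and 0.17 (SE 0.041, adjusted p = 0.0154) at 72 h against 0 h.

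Anln (anillin), which links actin and myosin in the contractile ring, gave 4.41 and 4.37 at 0 h, 4.55 and 4.43 at 6 h, 4.83 and 4.88 at 24 h, and 5.18 and 5.07 at 72 h. Each later time lay above the one before it with no overlap, with 0.46 (SE 0.062, adjusted p = 0.0027) at 24 h, 0.73 (SE 0.062, adjusted p = 0.000349) at 72 h against 0 h and 0.27 (SE 0.062, adjusted p = 0.0313) at 72 h against 24 h. Ect2, the exchange factor that activates RhoA at the furrow, gave 4.08 and 4.17 at 0 h, 3.99 and 4.04 at 6 h, 4.15 and 4.34 at 24 h, and 4.56 and 4.58 at 72 h. Its 24 h arrays overlapped those of 0 h and its 72 h arrays lay above all others, with 0.12 (SE 0.075, adjusted p = 0.245) at 24 h, 0.44 (SE 0.075, adjusted p = 0.00466) at 72 h against 0 h and 0.32 (SE 0.075, adjusted p = 0.0358) at 72 h against 24 h.

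Of the 5 genes of chromosome structure, 0 passed limma's test at 24 h against 0 h, where 21.4% of all genes rose. There, 1 (Smc2) had an unadjusted p under 0.05 in limma. At 72 h 2 rose and 1 fell, where 27.4% of all genes rose and 24.6% fell, so these counts lay near the background. Top2a, the topoisomerase that untangles sister chromatids, gave 4.73 and 4.60 at 0 h, 4.63 and 4.54 at 6 h, 4.80 and 4.73 at 24 h, and 4.62 and 4.55 at 72 h. Its arrays overlapped between 72 and 0 h and no comparison passed, with 0.10 (SE 0.067, adjusted p = 0.266) at 24 h and -0.075 (SE 0.067, adjusted p = 0.392) at 72 h against 0 h. Mki67, the Ki-67 protein that coats mitotic chromosomes and serves as a marker of proliferation, gave 5.71 and 5.76 at 0 h, 5.61 and 5.69 at 6 h, 5.63 and 5.73 at 24 h, and 5.61 and 5.71 at 72 h. Its arrays of all times lay close together, and the difference was -0.059 (adjusted p = 0.502) at 24 h and -0.084 (adjusted p = 0.316) at 72 h against 0 h. Ncapd2, a condensin subunit, gave 5.75 and 5.80 at 0 h, 5.58 and 5.59 at 6 h, 5.73 and 5.67 at 24 h, and 5.63 and 5.64 at 72 h. Its arrays at every later time lay below those of 0 h, with -0.19 (SE 0.044, adjusted p = 0.0399) at 6 h and -0.14 (SE 0.044, adjusted p = 0.0428) at 72 h. The condensin ATPases Smc2 and Smc4 rose at 72 h against 0 h, by 0.23 (adjusted p = 0.0209) and 0.36 (adjusted p = 0.0121).

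Foxm1, a transcription factor of G2 and mitosis genes, gave 1.93 and 1.89 at 0 h, 1.86 and 1.81 at 6 h, 2.28 and 2.24 at 24 h, and 2.48 and 2.45 at 72 h. The arrays of 24 h lay above all earlier ones and those of 72 h above all of 24 h, with 0.35 (SE 0.045, adjusted p = 0.00225) at 24 h, 0.55 (SE 0.045, adjusted p = 0.000303) at 72 h against 0 h and 0.20 (SE 0.045, adjusted p = 0.0293) at 72 h against 24 h. It was one of 5 mitosis genes called in 5 of the 6 comparisons, the others being Cdc25b, Plk1, Racgap1 and Anln. At the other end, Ttk, Cenpa, Top2a and Mki67 were called in none, and the shares of all genes called as often or as rarely were not counted.

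**Figure D3:**
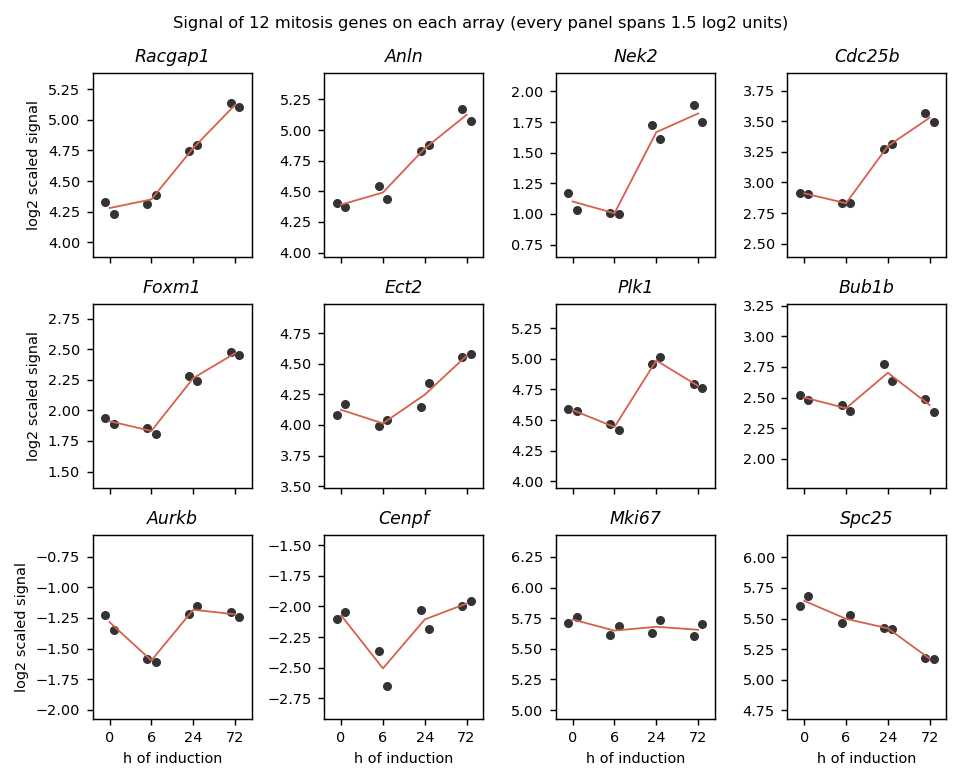
Points are the log2 scaled signals of 12 mitosis genes on each array against hours of induction, the line joins the means of 2 arrays, and every panel spans the same height. Racgap1, Anln, Cdc25b and Foxm1 go up through 72 h, Plk1 and Bub1b are highest at 24 h, Aurkb and Cenpf dip at 6 h, Mki67 stays within the spread of its arrays, and Spc25 goes down.

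For 14 of the mitosis genes, 2 or 3 probes gave a measured signal, and for 3 of them the probes disagreed in sign at 72 h against 0 h. The brightest Tpx2 probe (chr2:152719476-152719535 on mm9, plus strand) gave 3.11 and 3.1 at 0 h, 3.11 and 3.05 at 6 h, 3.43 and 3.52 at 24 h, and 3.54 and 3.50 at 72 h. A dimmer Tpx2 probe further downstream (chr2:152720285-152720344, plus strand) gave -0.76 and -0.80 at 0 h, -0.90 and -1.08 at 6 h, -0.83 and -1.02 at 24 h, and -1.21 and -1.44 at 72 h. The first was higher on all late arrays than on all earlier ones, by 0.37 (adjusted p = 0.00316) at 24 h and 0.41 (adjusted p = 0.00151) at 72 h against 0 h over all genes. The second was lowest on the 72 h arrays, with differences of -0.15 (adjusted p = 0.348) at 24 h and -0.55 (adjusted p = 0.00982) at 72 h against 0 h, where p-values of dimmer probes are adjusted over all 28609 kept probes. The probes thus differ in sign, and the mean of both gave -0.068 at 72 h.

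Mad2l1 had 3 probes within a short stretch of chromosome 6. The brightest (chr6:66490836-66490895) was higher by 0.31 at 24 h and 0.22 at 72 h than at 0 h. The dimmer probes (chr6:66490355-66490414 and chr6:66490067-66490126) gave 0.13 (adjusted p = 0.117) and 0.12 (adjusted p = 0.134) at 24 h, and -0.048 (adjusted p = 0.522) and -0.11 (adjusted p = 0.119) at 72 h. A dim Cdk1 probe gave -0.17 (adjusted p = 0.339) at 72 h, where another gave 0.17 and the brightest 0.14. The probes of Racgap1 gave 0.84 and 0.77 at 72 h, those of Pttg1 0.39 and 0.60, and those of Ccnb1 0.24, 0.44 and 0.50, with the brightest probe first each time. For Pttg1 and Ccnb1 the brightest probe thus had the smallest difference.

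**Figure D4:**
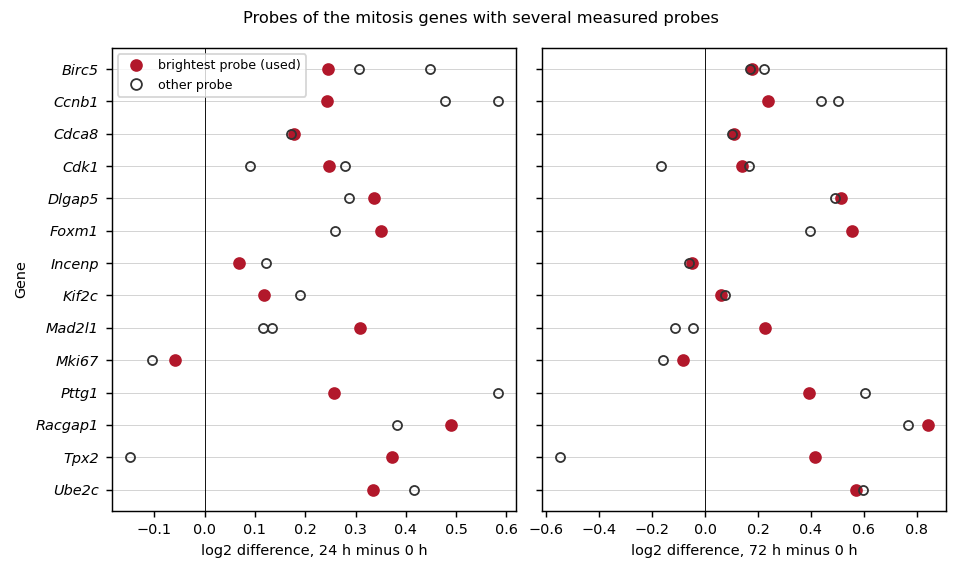
Each row is a mitosis gene with several measured probes and each point is the log2 difference of 1 probe against 0 h, at 24 h (left) and 72 h (right), with the brightest probe filled. The probes of Tpx2, Mad2l1 and Cdk1 lie on both sides of 0 at 72 h, and those of the other 11 genes lie on 1 side.

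Outside the 45, 103 of 104 further mitosis genes could be tested. Smaller shares of them rose at 24 and 72 h against 0 h and against 6 h, and the difference between the lists was not tested. Of the 103, 35 rose and 3 fell at 24 h against 0 h, 44 rose and 12 fell at 72 h against 0 h, 37 rose and 2 fell at 24 h against 6 h, and 46 rose and 11 fell at 72 h against 6 h. Their medians were 0.11, 0.11, 0.16 and 0.14, against 0.21, 0.20, 0.27 and 0.29 for the 45. At 6 h against 0 h, 6 of the 103 rose and 4 fell, where 10.3% of all genes rose and 7.25% fell. Their median there was -0.027, against -0.081 for the 45. At 72 h against 24 h, 11 rose and 11 fell, where 10.8% and 10.9% of all genes did. Of all genes, 21.4% rose and 20.1% fell at 24 h, and 27.4% rose and 24.6% fell at 72 h, against 0 h. Against 6 h, 12.6% rose and 13.6% fell at 24 h, and 22.9% rose and 22.4% fell at 72 h. Among 26 other spindle and cytokinesis genes, 15 rose at 72 h against 0 h, among them Troap, Spag5 and Ckap5 by 0.51, 0.51 and 0.50, and Aspm, a spindle pole protein, rose by 0.68 (adjusted p = 0.000298) at 72 h against 6 h. Of 31 other checkpoint and kinetochore genes, 16 rose and 3 fell at 72 h against 0 h. Mad1l1, the partner of Mad2 at the kinetochore, rose by 0.59 (adjusted p = 0.000502) at 24 h, and Cenpm and Mis12 had differences of -0.48 (adjusted p = 0.00174) and -0.45 (adjusted p = 0.0107) at 72 h.

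At 72 h against 0 h, 27.4% of all genes rose and 24.6% fell. Of 15 other APC/C genes, 3 rose and 4 fell, near these shares, with Cdc27 at 0.53 (adjusted p = 0.00134) and Anapc13 at -0.61 (adjusted p = 0.000378). Of 17 cohesin and condensin genes, 8 rose, led by Wapl, which releases cohesin from chromosomes, at 1.11 (adjusted p = 6.23e-05), and 1 fell, Stag1, a cohesin subunit, at -0.30 (adjusted p = 0.00552). Of 14 other regulators of entry, 2 rose and 4 fell, near or below the shares of all genes, with Mastl (Greatwall kinase) at 0.65 (adjusted p = 0.0471) and its substrate Arpp19 at -0.50 (adjusted p = 0.0106).

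Genes of DREAM, MuvB and NF-Y, which act on these promoters, were also measured as 1 list. Mybl2 (B-Myb), whose protein converts MuvB into an activator, rose by 0.26 (adjusted p = 0.0253) at 6 h, 0.69 (adjusted p = 0.000418) at 24 h and 0.59 (adjusted p = 0.000395) at 72 h against 0 h. The repressor E2F subunits of DREAM went opposite ways: E2f5 fell, with -0.55 (adjusted p = 0.00557) at 24 h and -0.90 (adjusted p = 0.000646) at 72 h, and E2f4, named after its values were seen, rose by 0.30 (adjusted p = 0.0132) and 0.21 (adjusted p = 0.0356). Of the 15 genes, NF-Y subunits included, 5 rose and 2 fell at 24 h, against 21.4% and 20.1% of all genes. At 72 h 5 rose and 3 fell, against 27.4% and 24.6%, so the 72 h counts lay near those of all genes.

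S phase genes were set beside the mitosis genes as the other large cell cycle group. Of 33 tested, 5 rose at 6 h against 0 h, where 10.3% of all genes rose. At 24 h 7 rose and 1 fell, where 21.4% and 20.1% of all genes did, and at 72 h 4 rose and 9 fell, where 27.4% and 24.6% did. The share of rises at 24 h and of falls at 72 h thus lay near that of all genes. At 72 h against 6 h, 3 rose and 11 fell, where 33 of the 45 mitosis genes rose and 1 fell, and where 22.9% and 22.4% of all genes rose and fell. Rrm2, a subunit of ribonucleotide reductase, had a difference of -0.65 (adjusted p = 0.000354), and Tyms, thymidylate synthase, of -0.59 (adjusted p = 0.00312). No test of the difference between the lists was made, and the comparisons share their arrays.

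**Figure D5:**
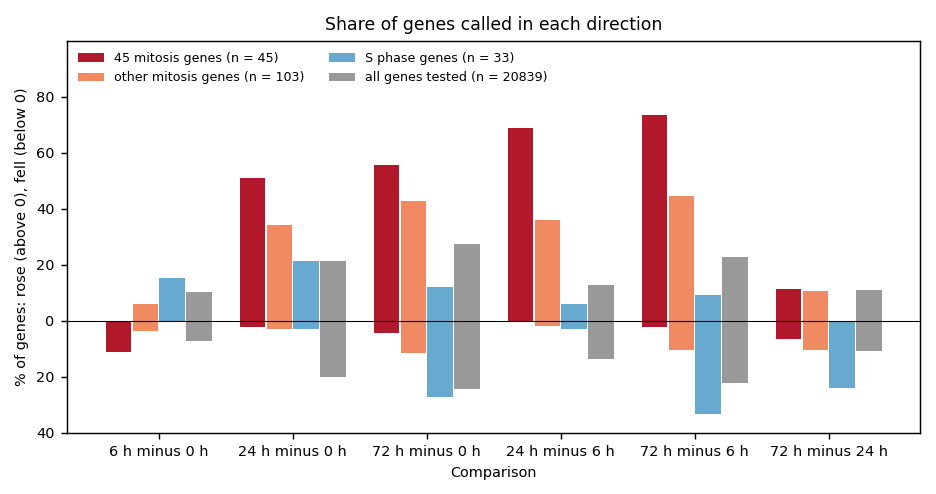
Bars give the percentage of genes that rose (above 0) or fell (below 0) in each comparison, for the 45 mitosis genes, 103 other mitosis genes, 33 S phase genes and all 20839 genes. The mitosis genes have the tallest upward bars in the 4 comparisons of a late time with 0 or 6 h, and S phase genes have the longest downward bars at 72 h against 0, 6 and 24 h.

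Markers of cell types also moved over these times, where 27.4% of all genes rose and 24.6% fell at 72 h against 0 h. Of 8 macrophage markers, 4 could be tested and 2 of them rose at 72 h against 0 h, Cd68 by 2.81 (adjusted p = 0.000134) and Csf1r by 0.44 (adjusted p = 0.00537). Cd68 was not well above background on every array. Ptprc, Adgre1, Tyrobp and Aif1 were not well above background on both arrays of any time. The summed signal of the 8, in multiples of the 75th percentile of the array, lay between 17.5 and 18.2 at 72 h and between 17.0 and 18.2 at 0 h. Of the 8 fibroblast markers that could be tested, 6 fell and 2 rose at 72 h against 0 h, and the summed signal of all 10 lay between 573 and 577 at 72 h and between 661 and 669 at 0 h. Of 8 epithelial markers, 3 could be tested, of which Krt8 and Krt18 rose by 0.93 (adjusted p = 0.00118) and 0.34 (adjusted p = 0.0297) and Esrp1 fell, at -0.51 (adjusted p = 0.0117), and the sum of the 8 lay between 4.82 and 5.01 at 72 h and between 2.73 and 3.09 at 0 h. Of 6 adipocyte markers, 2 could be tested, of which Fabp4 rose by 1.91 (adjusted p = 0.000186) and Pparg fell, at -0.45 (adjusted p = 0.00167), and the sum of the 6 lay between 1.87 and 1.97 at 72 h and between 0.771 and 0.791 at 0 h. Of 7 endothelial markers, 3 could be tested and 1 of them fell, Tek at -3.70 (adjusted p = 0.00137), which was not well above background on every array. The sum of the 7 lay between 2.28 and 2.29 at 72 h and between 2.34 and 2.41 at 0 h. Of 7 skeletal muscle markers, Des could be tested and was not called, and the sum lay between 0.632 and 0.635 at 72 h and between 0.596 and 0.600 at 0 h. The part of these changes in the differences of the mitosis genes was not tested.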

How the data were processed

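RNA of Csk-/- MEFs at 0, 6, 24 and 72 h of c-Src induction was labelled with Cy3 and measured on 1-colour Agilent arrays. Per the file headers, spots were read by Feature Extraction 10.5.1.1 with mm9 positions, whereas the submitters' processing notes give Agilent Feature Extraction 10.7.3.1. Per the file headers, the processed signal that the authors deposited is a linear intensity after background subtraction. Their value table gives it too, with differences of at most 0.497%.

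From the deposited intensity, log2 values were taken and each array's 75th percentile over its 59305 non-control spots was subtracted. Outlier spots were left out, spots of a probe averaged, and 28609 of 55681 probes kept that were well above background on both arrays of at least 1 time. The brightest kept probe stood for each of 20839 genes. Means of 4 times were fitted to 8 arrays with limma 3.58.1 in R 4.3.3 (4 residual degrees of freedom, prior 1.7), with Benjamini-Hochberg adjustment over all genes of a comparison at 0.05, and tested on simulated data. The median standard error was 0.075. The small number of arrays limits the precision. Scaling by median or quantile, normexp background correction, the filter, the probe rule, a replicate block, the value table, the samples fitted, the prior and each array were varied. Figures used Python 3.11.15 with pandas 2.3.3 and matplotlib 3.10.9.

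The mitosis genes and all lists were chosen with earlier results of these data known. Every mitosis gene is named. Array values are given for the 3 largest called rises and falls of each comparison and for the gene that opens each role. Of other lists, up to 3 called genes per comparison are named.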

Additional observations from a re-analysis of the deposited data

How the results depend on the processing

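Of 18 alternatives, normexp background correction, the mean of all probes of a gene and the deposited value table left all 13 counts of mitosis genes (rises and falls in 6 comparisons, and genes lowest at 6 h) within 1.5 times. The cause of the other shifts was not tested, and the share of all genes called also differed between alternatives. With median scaling, 0 genes fell at 6 h, 0 at 24 h and 1 at 72 h against 0 h, where 2.52%, 9.85% and 12.8% of all genes fell. At 72 h against 6 h 0 fell, where 12.3% of all genes fell. At 72 h against 24 h 2 rose and 0 fell, where 7.79% and 4.83% of all genes did. Median scaling raised the share of rises among all calls to 68.9%, 70.9% and 61.7% at 24 h against 6 h, 72 h against 6 h and 72 h against 24 h, from 48.1%, 50.5% and 49.8%. Under it, the median of all genes was 0.13 at 72 h against 6 h. It turned Ncapd2 at 72 h against 0 h to 0.044, and the mean of probes turned Tpx2 to -0.068. With quantile normalization, 12 genes fell at 6 h, where 9.8% of all genes fell. Without a filter on dim probes, 0 fell at 6 h, 11 rose and 0 fell at 24 h and 1 fell at 72 h against 0 h. Of all genes, 0.621% fell at 6 h, 8.15% rose and 7.36% fell at 24 h and 10.4% fell at 72 h. At 24 h against 6 h 10 rose, where 2.17% of all genes rose. At 72 h against 24 h 0 rose and 0 fell, where 0.959% and 1.61% of all genes did. With only the 2 times compared in the fit, 0 fell at 6 h, 12 rose and 0 fell at 24 h and 1 fell at 72 h against 0 h. Of all genes, 3.45% fell at 6 h, 15.5% rose and 14.9% fell at 24 h and 22.6% fell at 72 h. At 24 h against 6 h 12 rose, where 5.11% of all genes rose. At 72 h against 24 h 0 rose and 0 fell, where 2.07% and 3.12% of all genes did. With probes well above background on all arrays, 1 gene rose at 6 h, where 12.6% of all genes rose. With an intensity trend and robust prior, 1 rose and 9 fell at 6 h, where 14.4% and 9.82% of all genes did. With them, 5 fell at 72 h against 24 h, where 14.1% of all genes fell.

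Leaving out 1 array at a time, 0 to 5 genes fell at 6 h, 13 to 20 rose and 0 to 1 fell at 24 h, and 18 to 26 rose and 1 to 2 fell at 72 h against 0 h. Against 6 h, 15 to 27 rose at 24 h and 21 to 30 rose at 72 h. At 72 h against 24 h, 0 to 5 rose and 0 to 1 fell. Of the calls, 0 of 5 at 6 h, 10 of 24 at 24 h and 15 of 27 at 72 h against 0 h passed under all alternatives, as did 9 of 31 at 24 h against 6 h, 19 of 34 at 72 h against 6 h and 0 of 8 at 72 h against 24 h. The 2 falls at 72 h against 0 h became 1 without either array of 0, 6 or 72 h, and the fall of Spc25 at 24 h missed the threshold without array 2 of 0 h or of 24 h.

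Arrays of different times share replicate numbers, and replicate 1 lay in slide column 1 and replicate 2 in column 2 at every time. The correlations of their deviations were low, at 0.058 to 0.17, and pairing and slide column cannot be told apart. With the replicate number as a block, 8 genes rose and 5 fell at 72 h against 24 h, and no other count moved by over 1.5 times. Of all genes, 24% were called in that comparison with the block and 21.6% without it. With 2 arrays per time, the number of arrays limits what can be called, and all 45 genes were well above background on all arrays.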
